A study of Mus musculus with 8 samples.

Results

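Of the 24067 genes in the deposited table, 6 were followed here: Ucma, Cytl1, Lect1, 3110079O15Rik, Scrg1 and Chadl. They were chosen by symbol as genes for small secreted or membrane proteins that cartilage cells make, and all 6 were found and passed the filter on low values. Lect1 is named Cnmd and 3110079O15Rik is named Snorc in current annotation. RNA had been sequenced from articular chondrocytes, the cells that build and keep the cartilage of joints. These were primary cells from the knee ends of the femur and tibia of 5-day-old ICR mice, grown in low oxygen. One group received 50 nM of a miR-204 mimic, a synthetic copy of this microRNA, and the other 50 nM of a control small RNA (miR-Ctrl), so both groups had been transfected. Transfection lasted 24 h and the cells were harvested 24 h after it. Each group had 4 libraries, numbered 1 to 4. The labels do not say whether these were separate cultures, or whether animals were pooled, so each p-value here reflects only the spread among these 8 libraries, whose source is not known.

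As background, cartilage matrix is built mainly from type II collagen and aggrecan, under the control of the transcription factor SOX9. Chondrocytes also make other secreted and membrane proteins, some of which serve as marks of the cell type. UCMA is a secreted protein rich in gamma-carboxyglutamate, which vitamin K-dependent carboxylation forms from glutamate. CYTL1 is a secreted cytokine-like protein. LECT1 is chondromodulin, made as a membrane-bound precursor that furin-type proteases cut to release an inhibitor of blood vessel growth. The product of 3110079O15Rik is a membrane-spanning chondroitin sulfate proteoglycan. SCRG1 is a small secreted cysteine-rich protein, and CHADL is a leucine-rich repeat protein of the matrix that resembles chondroadherin.

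A microRNA lowers transcripts that pair with its seed, bases 2 to 8. The mature sequence (RefSeq, GRCm38.p6, chr19:22750610-22750631, plus strand) is shown with its seed in capitals because the 3′ UTRs of the 6 genes were searched for matches to it.
miR-204-5p: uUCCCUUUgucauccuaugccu
The words searched on the transcript strand were AAAGGGAA (8mer), AAAGGGA (7mer-m8), AAGGGAA (7mer-A1) and AAGGGA (6mer), with each place counted once as its longest match. None of the 6 genes had any of these words in its longest annotated 3′ UTR, nor in any other annotated 3′ UTR of the gene. These 3′ UTRs were short, at 44 nucleotides for 3110079O15Rik, 187 for Scrg1, 250 for Chadl, 272 for Lect1, 337 for Ucma and 525 for Cytl1. The median over 11192 tested genes with a 3′ UTR was 1191 nucleotides. Of those genes 63.1% had none of the words and 24.0% had a 7mer or 8mer.

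On mm10, Ucma lies on chromosome 2 at 4976122 to 4985748 and Cytl1 on chromosome 5 at 37735519 to 37739820, both on the plus strand. 3110079O15Rik is on chromosome 1 at 87470271 to 87475482 and Scrg1 on chromosome 8 at 57455923 to 57477585, also on the plus strand. Lect1 is on chromosome 14 at 79637690 to 79662170 and Chadl on chromosome 15 at 81678296 to 81697287, both on the minus strand. Chadl overlaps L3mbtl2, a gene on the opposite strand, over 10020 bases. The libraries were stranded, but the sources used here do not state whether strand was used in the counting, so the level of Chadl may include reads of L3mbtl2. The other 5 genes overlap no annotated gene.

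The values are FPKM (fragments per kilobase of transcript, scaled to the mapped fragments of the library), which are scaled to transcript length and can be set side by side between genes. Chondrocyte identity was read from 19 listed cartilage matrix genes, of which 1 stayed under 1 FPKM in every library. They summed to 14627 and 15151 FPKM in the libraries numbered 2 and to between 27998 and 44464 in the remaining 6. Col2a1, the main collagen of cartilage, had a mean of 18467 ± 7923 FPKM in the control libraries and 15366 ± 5490 after the mimic (SD, n = 4). Col1a1, a fibroblast-type gene, was also made, at a mean of 1074 FPKM over the 8 libraries. The libraries numbered 2 stood apart from the rest. Saa3, an acute-phase protein gene, reached 26618 FPKM (control) and 16455 FPKM (mimic) there, where the remaining 6 had 17.9 to 225. Mmp13, a collagen-degrading protease, had 1628 and 908 FPKM, compared with 3.66 to 54.8. They were also the shallowest: relative to miR-Ctrl replicate 1, the steps between low values gave depths of 0.773 and 0.798 for them, and 0.929 to 0.963 for the remaining 5.

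The first comparison asked how high the transcript level of each gene was, and protein was not measured here. Lect1 was the most abundant of the 6 in all 8 libraries, with a mean of 2053 FPKM that ranked 14 among 11612 tested genes. Ucma followed with 833 FPKM (rank 95), and then 3110079O15Rik with 533 (rank 132) and Scrg1 with 342 (rank 179). Chadl was far lower at 67.4 FPKM (rank 941). Cytl1 was the lowest in every library, with a mean of 16.5 FPKM (rank 3764). The level of Lect1 was thus between 1.94 and 3.24 times that of Ucma within a library, and that of Scrg1 between 3.53 and 6.26 times that of Chadl. Ucma was above 3110079O15Rik in 8 of 8 libraries, but by as little as 1.06 times. 3110079O15Rik and Scrg1 did not keep their order, since Scrg1 was the higher in both libraries numbered 2 and the lower in the other 6. Together the 6 genes held between 0.547% and 1.07% of the summed FPKM, with the 2 lowest shares in the libraries numbered 2 (0.547% and 0.628%).

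**Figure D1:**
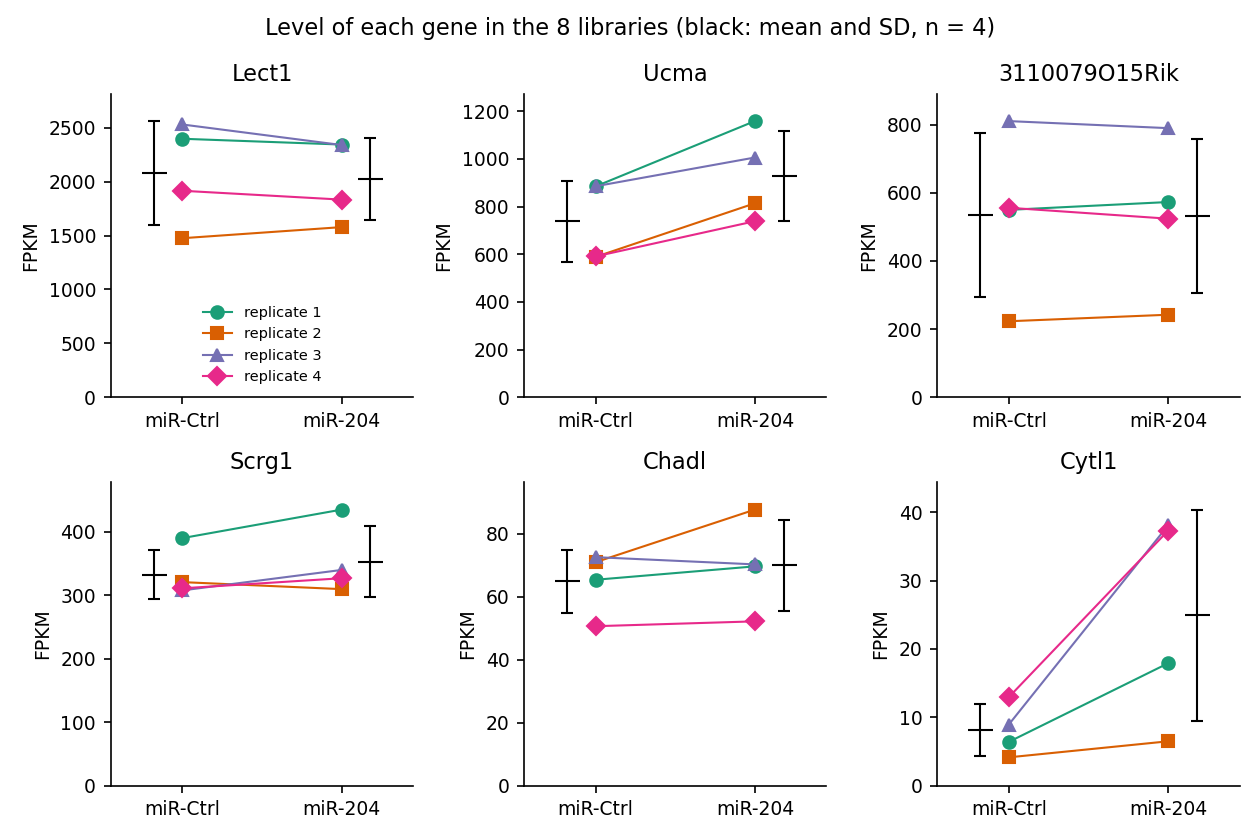
FPKM of the 6 genes (vertical axes, linear and from 0) in miR-Ctrl and miR-204 libraries, with lines joining libraries of equal replicate number and black marks for the mean and SD of 4 libraries. Cytl1 rose from 4.15 to 12.95 FPKM in miR-Ctrl to 6.49 to 38.1 in miR-204 along all 4 lines, and Ucma rose along all 4 lines with overlapping groups.

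The second comparison asked which of the 6 differed after the miR-204 mimic. Cytl1 and Ucma rose when libraries of equal replicate number were compared, Cytl1 by 1.57 to 4.26 times and Ucma by 1.14 to 1.38 times. Without pairing neither passed. The other 4 genes did not pass the test either way. Without pairing, 0 of the 6 genes passed limma, where 0.0258% of all 11612 tested genes were higher and 0.181% lower at an adjusted p of 0.05. At an unadjusted p under 0.05 the unpaired limma count was 1 of 6 higher, Cytl1, and 0 lower, where 6.57% of all tested genes were higher and 2.02% lower. With the replicate number as a block in the limma fit, 2 of the 6 were higher and 0 lower, where 12.4% of all tested genes were higher and 2.83% lower. Of all genes called in that fit 81.4% were higher, but 53.6% after each library was centred on its median and 50.9% after quantile normalization. With centred libraries the same 2 genes were higher and 0 lower, against 4.99% and 4.32% of all genes. Under quantile normalization Cytl1 alone was higher, against 4.78%.

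Cytl1 (gene ID 231162) encodes the secreted cytokine-like protein. Its level was 6.41, 4.15, 8.95 and 12.95 FPKM in miR-Ctrl replicates 1 to 4 and 17.9, 6.49, 38.1 and 37.3 FPKM in miR-204 replicates 1 to 4. The miR-204 libraries 3 and 4 were the highest, and the groups overlapped only through miR-204 replicate 2, which lay above 2 of the 4 control libraries. Within pairs of equal number the FPKM ratio was 2.79, 1.57, 4.26 and 2.88. The mean went from 8.11 ± 3.78 to 24.9 ± 15.4 FPKM (SD, n = 4), a log2 fold change of 1.33 ± 0.55 (SE) on the log2(FPKM + 1) scale. This scale slightly understates it, as the change was 1.42 with a pseudocount of 0.1. The unpaired limma test gave an adjusted p of 0.558 and the fit with the replicate block 0.0147 (SE 0.21, 95% interval 0.84 to 1.83). Among all 11612 tested genes the rise of Cytl1 ranked 13 from the highest. Without both libraries numbered 2 the log2 fold change was 1.59, with an adjusted p of 0.160 unpaired and 0.00254 with the block. The groups of 3 libraries left did not overlap, which follows from leaving out miR-204 replicate 2, the only library through which they had overlapped. The share of all genes without overlap is not given here for groups of 3.

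The call of Cytl1 in the blocked fit was lost without both libraries of replicate 1 (adjusted p = 0.0701) or of replicate 4 (0.0740), and with no filter on low values (0.0543). The size of the change moved less, and lay between 1.04 and 1.84 over all 26 alternatives tried.

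Ucma (gene ID 68527) encodes the matrix protein rich in gamma-carboxyglutamate. It was at 885, 589, 885 and 591 FPKM in miR-Ctrl replicates 1 to 4 and at 1159, 814, 1006 and 738 FPKM in miR-204 replicates 1 to 4. Replicates 1 and 3 were high and replicates 2 and 4 low in both groups, so the groups overlapped although every pair rose. The FPKM ratio within pairs was 1.31, 1.38, 1.14 and 1.25. The mean went from 737 ± 170 to 929 ± 190 FPKM (SD, n = 4), a log2 fold change of 0.34 ± 0.20 (SE). It did not pass the unpaired limma test (adjusted p = 0.685) but rose in the fit with the replicate block (adjusted p = 0.0152, 95% interval 0.21 to 0.47). Without the libraries numbered 2 it was at 0.30 (adjusted p = 0.0102 with the block). Under quantile normalization with the block it was at 0.28 with an adjusted p of 0.0603. The call was also lost without both libraries of replicate 1 (adjusted p = 0.0764) or of replicate 4 (0.0869), and with no filter on low values (0.0558). Ucma has 3 RefSeq transcripts in the deposited table, and the sources used here do not state how these were joined into 1 value.

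A higher value in all 4 pairs was common. It was seen in Cytl1 and Ucma, 2 of the 6 genes, and in 33.9% of all tested genes, while 0 of the 6 and 7.44% of all genes were lower in all 4. For 0 of the 6 did the groups not overlap, against 5.9% of all genes. Over all genes, log2 fold changes had a median of 0.064 and 74.1% lay above 0. The median of the 6 genes was 0.089, with 5 of 6 above 0, or 4 of 6 with centred libraries.

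**Figure D2:**
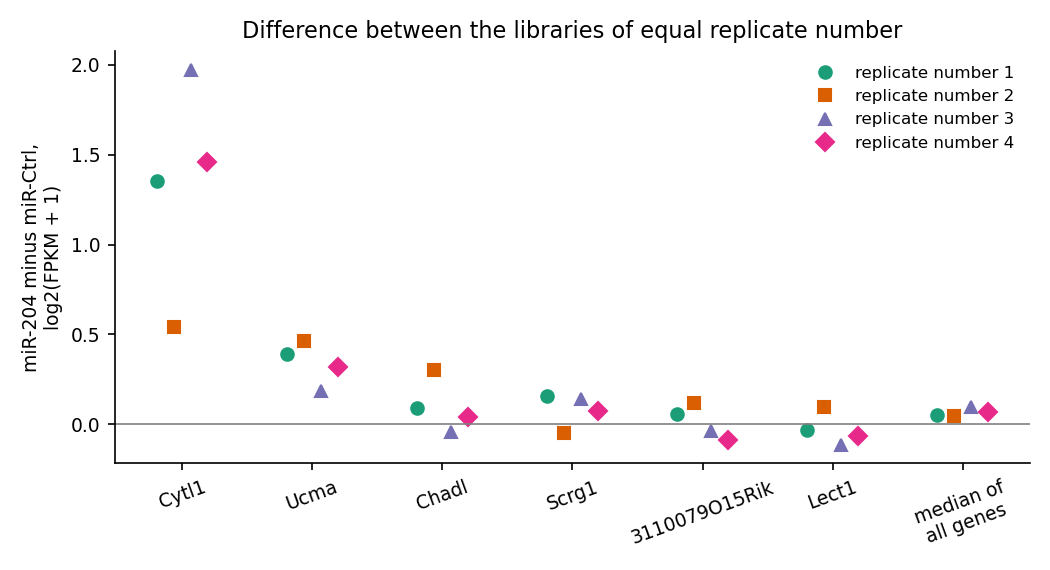
Difference in log2(FPKM + 1) between the miR-204 and the miR-Ctrl library of each replicate number (vertical axis), for the 6 genes and for the median of all 11612 tested genes. Cytl1 lay between 0.54 and 1.97 and Ucma between 0.18 and 0.47, while the points of Lect1 and 3110079O15Rik lay on both sides of 0.

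The genes of the membrane-bound products, Lect1 and 3110079O15Rik, did not pass, and their intervals in the blocked fit held 0. Lect1 (gene ID 16840), the chondromodulin gene, was at 2399, 1476, 2532 and 1917 FPKM in miR-Ctrl replicates 1 to 4. It was at 2346, 1579, 2341 and 1834 FPKM in miR-204 replicates 1 to 4. Both libraries numbered 2 were the lowest, and the pairs were lower in 3 cases and higher in 1. The log2 fold change was −0.028 (adjusted p = 0.716 by limma with the block, 95% interval −0.14 to 0.086), and −0.070 without the libraries numbered 2. 3110079O15Rik (gene ID 73234), the membrane proteoglycan gene, was at 550, 223, 810 and 556 FPKM in miR-Ctrl replicates 1 to 4. It was at 573, 242, 790 and 524 FPKM in miR-204 replicates 1 to 4. Its libraries followed the replicate number far more than the group, with number 2 lowest and number 3 highest in both groups. The log2 fold change was 0.014 (adjusted p = 0.862 by limma with the block, 95% interval −0.097 to 0.12), but −0.050 with centred libraries and −0.021 without the libraries numbered 2. Without the block the interval of 3110079O15Rik was far wider, from −1.05 to 1.08.

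The genes of the other secreted products, Scrg1 and Chadl, did not pass with all 8 libraries. Scrg1 (gene ID 20284), the small cysteine-rich protein gene, was at 390, 321, 308 and 311 FPKM in miR-Ctrl replicates 1 to 4. It was at 435, 310, 340 and 327 FPKM in miR-204 replicates 1 to 4. Replicate 1 was the highest in both groups, and 3 of 4 pairs were higher with miR-204. The log2 fold change was 0.080 (adjusted p = 0.261 by limma with the block, 95% interval −0.031 to 0.19). Without both libraries numbered 2, Scrg1 was at 0.12 and passed the blocked test (adjusted p = 0.0423), which made 3 of the 6 genes higher where 24.5% of all genes were. With centred libraries it was at 0.016. Chadl (gene ID 214685), the leucine-rich repeat protein gene, was at 65.4, 70.9, 72.5 and 50.6 FPKM in miR-Ctrl replicates 1 to 4. It was at 69.6, 87.6, 70.2 and 52.2 FPKM in miR-204 replicates 1 to 4. Replicate 4 was the lowest in both groups, and miR-204 replicate 2 was the highest library. The log2 fold change was 0.097 (adjusted p = 0.291 by limma with the block, 95% interval −0.047 to 0.24).

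**Figure D3:**
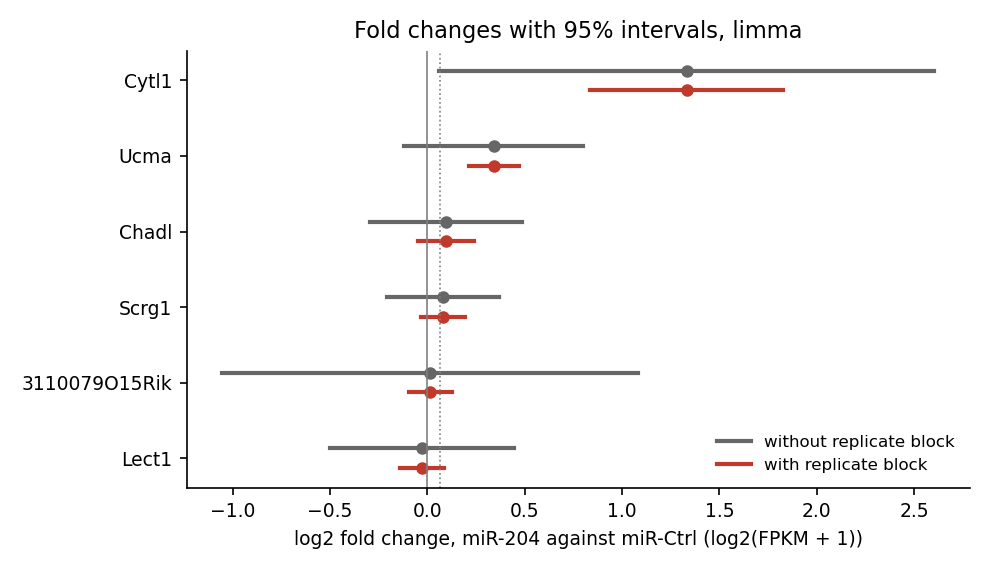
log2 fold change of each gene (horizontal axis, log2(FPKM + 1) scale) with its 95% interval from limma, grey without and red with the replicate block. The solid line is 0 and the dotted line the median of all genes (0.064). The blocked intervals of Cytl1 (0.84 to 1.83) and Ucma (0.21 to 0.47) lay above 0, and those of the other 4 genes held 0.

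The third comparison asked how the 6 genes varied between replicate numbers, whatever the group. All 6 passed the limma F test of the replicate number with the group in the model (adjusted p between 8.84e-05 for 3110079O15Rik and 0.00938 for Scrg1), but so did 51.5% of all tested genes. The 4 numbers differed most for Cytl1, whose highest and lowest mean lay 1.90 apart on the log2 scale, and for 3110079O15Rik at 1.78. This was a wider spread than in 98.0% and 97.7% of all tested genes. Lect1 (0.67), Ucma (0.62) and Chadl (0.61) were intermediate, and Scrg1 (0.39) was closest to the median of all genes (0.29). In all 6 genes this spread was larger than the log2 fold change with miR-204, for Cytl1 by the smallest ratio (1.90 against 1.33). Over all tested genes the medians lay the same way (0.29 against 0.064). The share of all genes with the larger spread is not given here, so this is no trait of the 6. Without both libraries of replicate 1 the F test called 5 of the 6, with Scrg1 lost, and 41.4% of all genes. Without those of replicate 4 it called 5, with Chadl lost, and 40% of all genes.

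**Figure D4:**
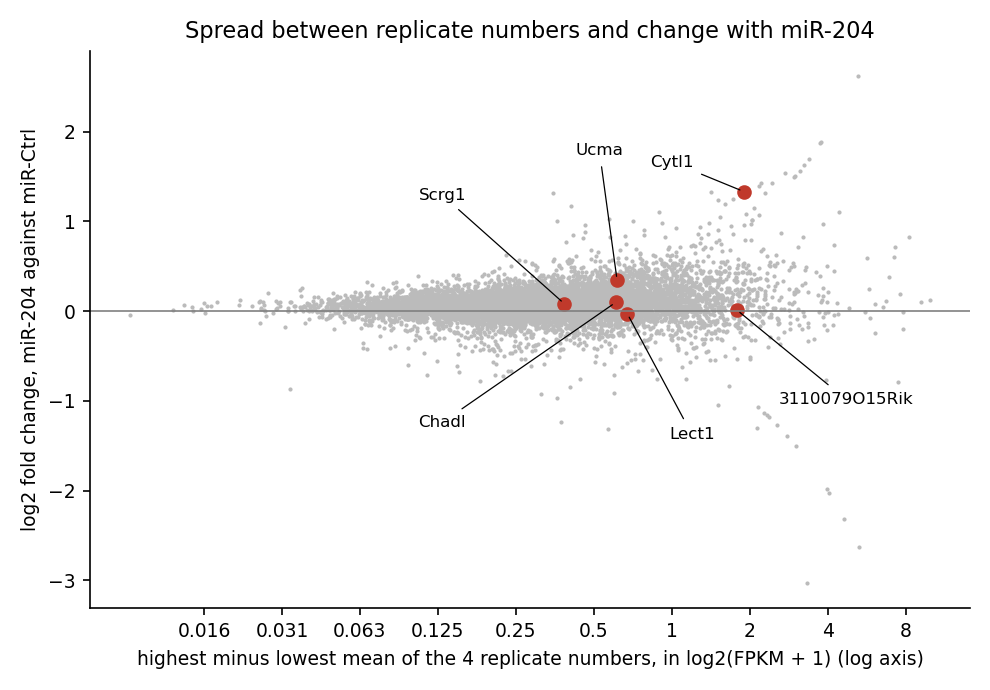
Each of 11612 tested genes by the difference between the highest and the lowest mean of the 4 replicate numbers (horizontal, log axis) and by its log2 fold change (vertical), with the 6 genes in red. Cytl1 and 3110079O15Rik had nearly the same spread between numbers (1.90 and 1.78) and log2 fold changes of 1.33 and 0.014.

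The inflammatory genes moved with the replicate number too. The summed FPKM of 10 such genes was 26048 and 40753 in the libraries numbered 2 and between 74.5 and 616 in the other 6, and its part in the low levels of that number was not tested. Both libraries numbered 2 lay below the other 6 for Lect1 and 3110079O15Rik, 2 of the 6 genes, where 8.98% of all tested genes did so, and above the other 6 for 0 of the 6 genes, against 30.5% of all. They lay below the other 6 for 15 of 18 tested cartilage matrix genes. Cytl1 had its lowest control value and its lowest miR-204 value there. Scrg1 and Chadl did not follow this order, and the highest Chadl value of all, 87.6 FPKM, was in miR-204 replicate 2. In such bulk samples, fewer chondrocytes and less RNA per chondrocyte cannot be told apart.

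**Figure D5:**
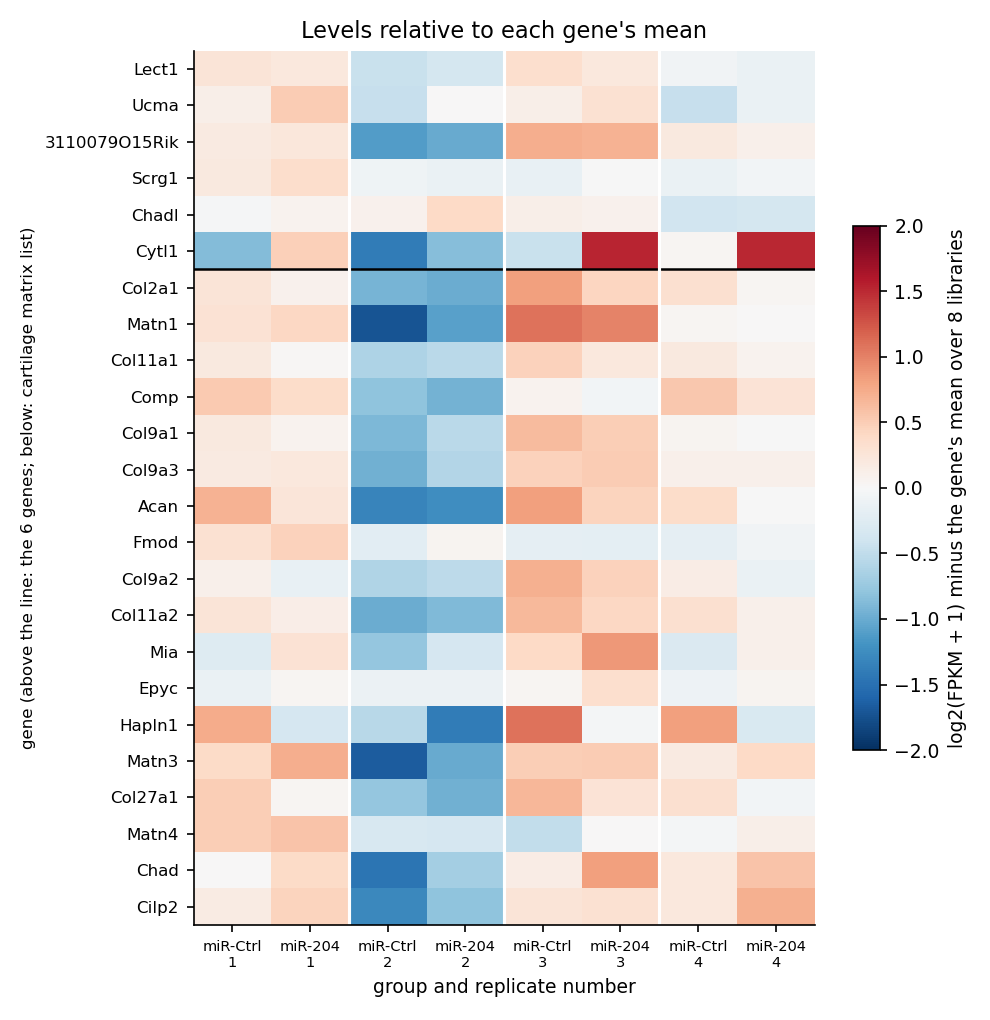
log2(FPKM + 1) minus the gene's mean over the 8 libraries (colour, from −2 blue to 2 red) for the 6 genes above the line and 18 cartilage matrix genes below it, with libraries in pairs of equal replicate number. Both libraries numbered 2 were below the other 6 for 15 of the 18 matrix genes and for Lect1 and 3110079O15Rik, and Cytl1 was the one of the 6 with its highest values in miR-204 replicates 3 and 4.

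Among genes of the same tissue and of the same pathways, some passed in the blocked fit, and none of the lists held a gene that passed unpaired. The blocked fit called 12.4% of all tested genes higher and 2.83% lower, or 4.99% and 4.32% with centred libraries. Each count of a list below is to be read beside these shares, and whether any list exceeded them was not tested. Of 18 tested cartilage matrix genes, 0 passed the unpaired limma test (1 at an unadjusted p under 0.05, where 6.57% of all genes were higher and 2.02% lower), and with the block 3 were higher and 3 lower (2 and 3 with centred libraries). Mia, which encodes another small secreted protein of chondrocytes, rose from 290 ± 101 to 399 ± 142 FPKM (log2 fold change 0.46, blocked adjusted p = 0.00427), in 4 of 4 pairs. Chad, the chondroadherin gene that Chadl resembles, rose from 24.8 ± 10.5 to 35.7 ± 13.7 FPKM (0.54, blocked adjusted p = 0.0132). Hapln1, the link protein of aggrecan, and Col27a1, a fibrillar collagen gene, fell by 1.04 and 0.36 on the log2 scale in the blocked fit (adjusted p = 0.00136 and 0.0116). The median of the matrix list was 0.064, and that of all genes 0.064. Acan, the aggrecan gene, was at −0.28 and Col2a1 at −0.23, and neither passed the blocked test (adjusted p = 0.0773 and 0.0594).

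Of 7 relatives of the 6, Chad among them, 2 were higher and 1 lower with the block (12.4% and 2.83% of all genes). Their median was 0.25. Tnmd, which encodes tenomodulin, the close relative of LECT1 in tendon, rose from 10.4 ± 3.22 to 12.8 ± 3.28 FPKM (0.29, adjusted p = 0.0125), while Lect1 did not pass, a difference that was not tested. Itm2a, which shares the BRICHOS domain with LECT1, fell from 1143 ± 148 to 883 ± 80.4 FPKM (−0.37, adjusted p = 0.0183), without overlap between groups, as in 5.9% of all genes. Mgp, the matrix Gla protein gene, was at 605 ± 250 and 714 ± 271 FPKM (0.25, blocked adjusted p = 0.0510).

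Of 7 enzymes that process such proteins, 1 was higher with the block and 0 lower (12.4% and 2.83% of all genes). With centred libraries 0 were higher and 1 lower (4.99% and 4.32% of all genes). Their median was 0.066 without centring. The higher one was Vkorc1l1, a vitamin K epoxide reductase, at 6.86 ± 0.19 and 7.85 ± 0.51 FPKM (0.17, adjusted p = 0.0337), and it did not pass with centred libraries (0.162). The lower one was Pcsk5, a proprotein convertase related to furin, with a log2 fold change of −0.22 (blocked adjusted p = 0.0746) and of −0.28 with centred libraries (adjusted p = 0.0417). Ggcx, the carboxylase that acts on UCMA, was at 21.9 and 22.0 FPKM (0.0098, blocked adjusted p = 0.873). Vkorc1 (−0.037) and Furin (0.086), a protease of the kind that cuts the LECT1 precursor, did not pass either. Of 12 chondrocyte transcription factors and cofactors, 0 were higher and 2 lower with the block, Foxa2 (−0.41, adjusted p = 0.0140) and Runx2 (−0.29, adjusted p = 0.0152), and the median was 0.028. Sox9 was at 61.6 ± 9.06 and 56.5 ± 8.81 FPKM (−0.12, blocked adjusted p = 0.0599) and passed with centred libraries (0.0217). Of 7 tested genes of chondrocyte hypertrophy 0 were higher and 2 lower with the block (12.4% and 2.83% of all genes), with a median of −0.078. The lower ones were Alpl, a phosphatase of mineralizing matrix (−0.71), and Pth1r, the parathyroid hormone receptor (−0.31). Of 8 fibroblast-type genes 2 were higher with the block, Dpt (0.69) and Thy1 (0.42), and 1 lower, Col5a1 (−0.34), with a median of 0.074. Of 10 inflammatory genes 1 was higher with the block, the chemokine gene Ccl2 (0.72), and 0 lower, with a median of 0.15.

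Markers of endothelial, erythroid and pericyte cells were nearly absent. Fibroblast-type genes were not: those 8 genes summed to 1702 to 3477 FPKM with miR-Ctrl and 1608 to 3609 with miR-204. Col1a1 alone had a mean of 1074 FPKM over the 8 libraries, and which cells made it was not tested. All 5 endothelial markers, with Pecam1 the highest, summed to at most 0.189 FPKM, and the 3 erythroid markers to at most 0.345. Pericyte and smooth muscle markers (Myh11, Rgs5, Notch3) summed to at most 1.82 FPKM. Of 6 macrophage markers in the table, 4 stayed under 1 FPKM in every library and 3 of them were at 0 in at least 1 library. The macrophage sum was 3.26 to 12.5 FPKM with miR-Ctrl and 8.54 to 16.4 with miR-204, because of Lyz2 and Cd68. Cd68 rose from 1.51 ± 0.76 to 3.93 ± 0.98 FPKM (log2 fold change 1.01, blocked adjusted p = 0.00997), and its part in the rise of Cytl1 was not tested. Ptprc, which marks blood-derived cells, was at a mean of 0.0103 and 0.0116 FPKM. The skeletal muscle sum was 0.884 to 5.21 and 3.04 to 8.55 FPKM, nearly all from Acta1 (0.94, blocked adjusted p = 0.0173), with the other 3 muscle markers under 1 FPKM in every library. Acta1 was also among the genes most like Cytl1, and this too was not tested. Osteoblast markers summed to 7.28 to 19.3 and 11.98 to 14.5 FPKM, adipocyte markers to 0.395 to 31.8 and 1.52 to 19.5, and tendon markers to 32.0 to 36.4 and 35.9 to 45.9.

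The genes most like each of the 6 were found by the mean absolute difference between gene-centred log2 values over the 8 libraries. The difference between the groups is part of this distance. Whether a nearest gene rose or not thus follows largely from how it was picked, and is no separate result. For Cytl1 they were Pla2g7, a phospholipase gene (0.38), Mcam, a cell adhesion gene (0.41), and Acta1 (0.42), and all 3 rose in the blocked fit, with log2 fold changes of 0.93, 0.82 and 0.94. No gene came closer to Cytl1 than 0.38, whereas the other 5 genes had a gene within 0.13. This distance grows with the spread of the gene itself. The median distance to all tested genes was also larger from Cytl1 (0.90) than from the other 5 (0.19 to 0.58). For Ucma they were Grem1, a BMP antagonist (0.12), Rlbp1 (0.13) and Gm15545 (0.13). Grem1 rose from 22.1 ± 5.77 to 31.6 ± 5.78 FPKM (0.52) and Rlbp1 by 0.34 on the log2 scale, and Gm15545 (0.072) did not pass. For Lect1 they were Ung, a DNA repair gene (0.056), Gm973 (0.058) and Hint2 (0.068). For 3110079O15Rik they were Scube2, a secreted protein gene (0.063), the tubulin gene Tubb2a (0.076) and Gramd2 (0.11). For Scrg1 they were Atp6v0a2, a proton pump subunit gene (0.036), Tmed3 (0.037) and Mdga1 (0.047), and for Chadl Polr1b, an RNA polymerase I subunit gene (0.086), Emg1 (0.092) and 1810022K09Rik (0.099). None of the nearest genes of Lect1, 3110079O15Rik, Scrg1 and Chadl passed the blocked test.

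The 6 genes did not share 1 pattern. Ucma and Lect1 were the closest, 0.18 apart, where the median distance to all tested genes was 0.31 from Ucma and 0.30 from Lect1. Lect1 ranked 65 among the 11611 other tested genes by nearness to Ucma. Lect1 and Scrg1 were 0.20 apart, which was under the median distance from Lect1 but over that from Scrg1 (0.19), so that Lect1 ranked only 6674 by nearness to Scrg1. Chadl was farther from each of the other 5 than from the median tested gene (0.22). Cytl1 was at least 0.66 from each of the other 5, but its median distance to all tested genes was 0.90, and 3110079O15Rik, the nearest of the 5, ranked 136 by nearness to it. Cytl1 and Chadl were the farthest apart at 1.04.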

How the data were processed

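The 6 genes, the gene lists and the tests were chosen with earlier results of these data known. The deposited table, made by the authors, gives 1 FPKM value per gene and library. Polyadenylated RNA went into stranded libraries, per the labels' protocols. Per the submitters' processing notes, mm10, Cufflinks 2.2.1 and TopHat were used, and no TopHat version is named there. Of 158 missing or date-damaged symbols, 156 were restored by gene ID. The 11612 genes whose mean reached 1 FPKM were tested on log2(FPKM + 1) by limma 3.58.1 (R 4.3.3; trended prior, two-sided), with Benjamini-Hochberg adjustment over all tested genes at 0.05. Code was tested on simulated data.

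The labels give only the replicate number, so the main fit had no block. The 2 libraries of each number deviated together from their group means across genes (r = 0.44, 0.82, 0.76 and 0.62 for numbers 1 to 4), so the numbers paired the samples. Adjusted p-values of both fits are printed for Cytl1 and Ucma. For the other 4 genes and the listed genes mostly the blocked one is printed, and none of these genes passed unpaired. All per-sample columns were used. The named genes were the 6, the 3 nearest genes to each, from each list as many as 4 that passed or, with none, the 2 of highest mean, and Col2a1, Acan, Sox9, Saa3 and Mmp13. As none passed unpaired, up to 4 that passed the blocked fit were named too, a choice made after seeing the data, as were Ggcx, Pcsk5, Ptprc and Myh11. 3′ UTRs came from GENCODE M21 (GRCm38, the assembly of mm10). Protein sequences were not used here.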

Additional observations from a re-analysis of the deposited data

Results flagged for a closer look

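Of 100 groups of 4 values (the 6 genes and the named genes of the lists, by treatment), 15 had a library so far from the other 3 that its gap, divided by the range, was above Dixon's 95% critical value. Chance flags about 1 in 20 such groups where the genes are picked without regard to their values, which was not so here. Saa3 and Mmp13 were always named, and others, such as Lcn2, entered by the highest mean of their list, which the libraries numbered 2 raised. The 15 flags therefore cannot be set against that rate. Of the 6 genes, this was so for Scrg1 in miR-Ctrl replicate 1, at 390 FPKM against 308 to 321. Replicate 2 was the far library in 12 of the other cases. Saa3 was at 26618 FPKM (miR-Ctrl) and 16455 (miR-204), Lcn2 at 9134 and 5521, Mmp13 at 1628 and 908, and Ccl2 at 460.5 and 536. Vkorc1l1 was at 7.14 and 8.61 FPKM, Spp1 at 1154 in miR-Ctrl, and Sox9 at 48.1 in miR-Ctrl, the only low value of these. Outside replicate 2, Dpt was at 17.3 FPKM in miR-204 replicate 1 and Des at 0.374 in miR-204 replicate 4.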

How the results depend on the processing

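The limits are these. The paired calls rest on 4 pairs that the labels join only by number, and both were lost without pair 1 or pair 4 and with no filter. Depth is known only relative to 1 library, and the libraries numbered 2 were the shallowest.

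With no replicate block, 0 of the 6 genes were called under every alternative. With the replicate block 2 were higher, as with a pseudocount of 0.1 and the block (2) and centred libraries and the block (2), but 1 with quantile normalization and the block, and 0 with no filter and the block. Over all fits without a library or a pair the count was between 0 and 3. Of all genes, 3 were higher and 21 lower without the block, 1436 and 329 with it, and 1434 and 332 with a pseudocount of 0.1 and the block. The counts were 0 and 9 with no filter, 542 and 197 with no filter and the block, 8 and 55 with centred libraries, 579 and 502 with centred libraries and the block, 7 and 66 with quantile normalization, and 555 and 536 with that and the block. Without single libraries or pairs they ranged from 0 to 2828 higher and from 0 to 535 lower. With the block they were 137 and 93 without replicate 1, 2828 and 535 without replicate 2, 264 and 153 without replicate 3, and 88 and 82 without replicate 4, and 16 were lower without miR-Ctrl replicate 2 and no block. The count of the 6 genes that passed the test of the replicate number was 5 or 6, with Scrg1 lost without replicate 1 and Chadl without replicate 4.

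Cytl1 and Ucma kept their direction in all 26 alternatives (1.04 to 1.84 and 0.23 to 0.44). Of the 4 genes that were not called, 3110079O15Rik changed sign in 12, to −0.050 with centred libraries with or without the block, to −0.037 with quantile normalization, and between −0.36 and 0.35 without single libraries or pairs (−0.0014 without both libraries of replicate 1, −0.021 without those of replicate 2). Lect1 changed sign in 6 (between −0.18 and 0.085 without libraries or pairs, and 0.00045 without both libraries of replicate 3), Chadl in 2 (between −0.018 and 0.23) and Scrg1 in 1 (between −0.024 and 0.16). The cause was not tested. The search of all 3′ UTRs gave 0 genes with a site, as did the longest.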
